A study of Mus musculus with 16 samples.

Results

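Dexamethasone (DEX), a synthetic glucocorticoid, was compared with saline in the dorsal raphe nucleus (DRN) of mice that had not been stressed. The comparison rests on the libraries whose titles mark a control animal, 3 given DEX and 3 given saline, which are 6 of the 16 libraries of the series. All animals were adult males labelled C57BL6, DEX was injected at 2 mg/kg, and tissue was taken 6 h after the injection in every group. The DRN was cut from frozen sections with a biopsy punch, so each library holds every cell type of the punched tissue. The other 10 libraries are from mice stressed by social defeat over 30 days, which behavior divided into a passive coping (PS, 3 DEX and 2 saline libraries) and an active coping group (AS, 2 DEX and 3 saline libraries). They enter here through the shared estimate of spread and through a comparison of DEX effects. Libraries are named as in the labels, and values are given in the order con_sal_102, con_sal_104 and con_sal_114 for saline and con_dex_101, con_dex_116 and con_dex_122 for DEX. The study's methods describe the libraries of a group as biological replicates from separate mice, and they state that DRN libraries with outlying low Tph2, all from stressed mice given DEX, were removed before analysis. The methods give more DRN libraries than the 16 of the series, and more for each control arm than the 3 used here. The stated removal does not account for this difference.

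DEX enters cells and binds the glucocorticoid receptor, a transcription factor that moves to the nucleus and raises or lowers the transcription of its target genes. The receptor binds an inverted repeat of short sites separated by 3 bases, and it also acts without direct DNA contact by holding back other factors. The DRN holds the serotonin neurons that project to the forebrain, next to GABA, glutamate and dopamine neurons, glia, vessels and the ciliated lining of the aqueduct, and most of these cell types carry the receptor.

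After DEX, 145 genes were higher and 38 were lower in control mice among the 14504 genes tested, which is 1.0% and 0.262% of them (limma, adjusted p under 0.1). Together this is 1.26% of all genes, the share beside which the counts of called list members below stand. These calls were set against a chosen list of 30 known glucocorticoid targets, and the number of calls outside the list depends on that choice. Of its members, 28 were measured, 16 were called higher and 1 lower, and the median log2 change of the list was 0.74 against 0.0042 over all genes. That left 129 genes called higher and 37 called lower outside the list, of which 37 rose and 6 fell by at least 2-fold. All 183 called genes had their 3 DEX libraries entirely above or entirely below the 3 saline libraries, a separation that 8.51% of all genes showed upward and 7.43% downward. Where separate arms are given for single called genes below, they are a description and add no further evidence to the call. Of the genes called higher, 139 were protein coding, as were 37 of those called lower. The counts leaned on single libraries: they were 62 higher and 10 lower without con_dex_122, 69 and 18 without con_dex_101, 91 and 30 without con_dex_116, and 86 and 18 without con_sal_104. They were 220 and 57 without con_sal_102, 171 and 63 without con_sal_114, and 224 and 65 without the AS saline library numbered 40.

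The control libraries held 39733580 to 54638098 reads in the listed genes, and the 10 most abundant genes took 4.06% to 4.96% of them. Defining genes of serotonin neurons were abundant in every control library, of which Tph2 was itself used to keep libraries. Tph2, the serotonin-making enzyme of the brain, had 107794, 148070.2 and 123390.1 in the saline libraries and 108805, 161346 and 128674 in the DEX libraries, as normalized read counts. For Slc6a4, the serotonin transporter, these were 89379.9, 129820.2 and 74627 in the saline libraries and 85557, 106879 and 106483 in the DEX libraries. Both ranges overlapped between the arms. The log2 change was 0.07 for Tph2 (adjusted p = 0.929) and 0.06 for Slc6a4 (adjusted p = 0.93). Markers of other cells of the punch varied between libraries of the same arm. The 11 measured ependymal markers summed to between 7183 and 12630 normalized counts in saline libraries and between 3636 and 12800 in DEX libraries, with con_dex_101 lowest. The 4 measured markers of cholinergic motor neurons summed to between 2018 and 3366 and between 1917 and 6348, and Chat was at 306, 113 and 20.3 in the saline libraries and 156, 693 and 285 in the DEX libraries. The part of these differences in the results below was not tested.

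The promoters of responding genes were read from the RefSeq promoter table of GRCm38.p6, which gives the 250 bases before and the 50 bases after a start site. The searched motif was the core of the receptor's inverted repeat, ACANNNTGT, which reads the same on both strands, and the single arm of the repeat, AGAACA, was counted on both strands too, where its last 3 bases may be the first 3 of the core. The table held 113 of the 145 genes called higher, with 151 windows, and 26 of the 38 called lower, with 28 windows. The core lay in 15 windows of genes called higher (9.93%), in 1 window of genes called lower (3.57%), in 4.27% of the 13268 windows of all tested genes and in 6.85% of all windows of the table. The single arm lay in 17.2%, 14.3%, 12.2% and 19.0% of these windows, and no test was made of either share. Windows are not separate genes. The 15 windows with the core belonged to 13 of the 113 genes called higher, and over all tested genes the core lay near 532 of 10279. Sgk1 and Fam107a each had more than 1 such window, and those of Fam107a overlap and hold the same site. Sgk1, Fam107a and Map3k6 among the 13 are known targets. Of the 15 genes with the strongest evidence of a rise outside the known targets, Htr1d, Mfsd2a, Mxd4, Aff1, Agfg2, Fsd2 and Kirrel2 were in the table, and the core was found in the window of Fsd2. Its window is printed with those of Notch4, chosen after its values were seen, and of the known target Sgk1, to show the letters that the search found. Capitals mark the core.
Fsd2 (chr7:81566932-81567231, minus strand): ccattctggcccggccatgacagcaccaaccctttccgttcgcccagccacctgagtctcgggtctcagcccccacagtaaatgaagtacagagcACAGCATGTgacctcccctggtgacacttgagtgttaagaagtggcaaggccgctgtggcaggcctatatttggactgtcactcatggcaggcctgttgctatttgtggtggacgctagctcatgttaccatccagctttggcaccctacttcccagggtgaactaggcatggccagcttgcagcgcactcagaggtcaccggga
Notch4 (chr17:34564045-34564344, plus strand): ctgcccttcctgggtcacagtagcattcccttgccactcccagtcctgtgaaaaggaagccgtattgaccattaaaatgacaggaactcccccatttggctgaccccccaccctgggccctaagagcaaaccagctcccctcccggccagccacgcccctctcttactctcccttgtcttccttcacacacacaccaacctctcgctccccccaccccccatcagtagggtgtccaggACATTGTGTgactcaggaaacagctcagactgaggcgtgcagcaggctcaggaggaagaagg
Sgk1 (chr10:21993640-21993939, plus strand): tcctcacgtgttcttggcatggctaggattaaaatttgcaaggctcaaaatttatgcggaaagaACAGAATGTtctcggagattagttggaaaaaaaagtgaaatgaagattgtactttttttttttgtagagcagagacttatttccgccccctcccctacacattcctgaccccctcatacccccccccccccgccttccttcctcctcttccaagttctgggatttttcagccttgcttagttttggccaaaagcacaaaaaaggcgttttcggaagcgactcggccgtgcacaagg

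Outside the known targets, the genes with the smallest p among those that rose held enzymes, a kinase, a hormone, a receptor and regulators of transcription. Pla2g3 (ENSMUSG00000034579.17, chromosome 11, 3488284 to 3499350 in GRCm38) encodes a secreted phospholipase A2 and had 234, 193 and 218 in the saline libraries and 812, 605 and 673 in the DEX libraries. The arms lay apart, with means that went from 215 ± 20.3 (SD, n = 3) to 697 ± 105 (SD, n = 3), a log2 change of 1.69 (SE 0.15, adjusted p = 4.73e-05). Sgk3 (ENSMUSG00000025915.14, chromosome 1, 9798107 to 9900845), a kinase of the family of the known target Sgk1, had 294, 175 and 326 in the saline libraries and 1661, 1369 and 1171 in the DEX libraries. Every DEX library of Sgk3 lay more than 3 times above the highest saline library, and the rise was 5.28-fold in means (log2 change 2.43, SE 0.24, adjusted p = 0.000171). Insl6 (ENSMUSG00000050957.4, chromosome 19, 29321344 to 29325356), an insulin-like peptide gene best known from the testis, was near the lower end of the measured range with 13.9, 24.4 and 18.4 in the saline libraries and 237, 265 and 234 in the DEX libraries. Its rise was the largest of these genes (log2 change 3.66, SE 0.39, adjusted p = 0.000383). Nxf3 (ENSMUSG00000057000.12, chromosome X, 136072099 to 136085255), of the nuclear RNA export factor family, was also low, with 31.7, 38.7 and 39.6 in the saline libraries and 227, 269 and 294 in the DEX libraries, and rose 7.18-fold (log2 change 2.81, SE 0.31, adjusted p = 0.000427).

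Xdh (ENSMUSG00000024066.9, chromosome 17, 73883895 to 73950196), which makes uric acid in the last steps of purine breakdown, had 275, 133 and 188 in the saline libraries and 867, 722 and 706 in the DEX libraries. The arms were far apart, and Xdh rose from 199 ± 71.6 (SD, n = 3) to 765 ± 88.6 (SD, n = 3) (log2 change 1.99, SE 0.24, adjusted p = 0.000774). Smaller levels with clear rises were measured for Fsd2, a gene of a fibronectin and SPRY domain protein, with 54.5, 35.6 and 51.6 in the saline libraries and 274, 178 and 255 in the DEX libraries (log2 change 2.29, SE 0.30, adjusted p = 0.00131). Kirrel2, an adhesion molecule of the immunoglobulin superfamily, Tcim, a small regulator linked to Wnt signaling, and the long noncoding RNA 9330121J05Rik had log2 changes of 1.96, 2.22 and 2.23. Agfg2, of a family of Arf GTPase-activating proteins, changed less but evenly, with 2453, 2583 and 2229 in the saline libraries and 3956, 3614 and 3709 in the DEX libraries (log2 change 0.64, SE 0.08, adjusted p = 0.0011). The 15 higher genes in the plot of levels by library passed the test in each of the 16 fits that left out 1 library.

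**Figure D1:**
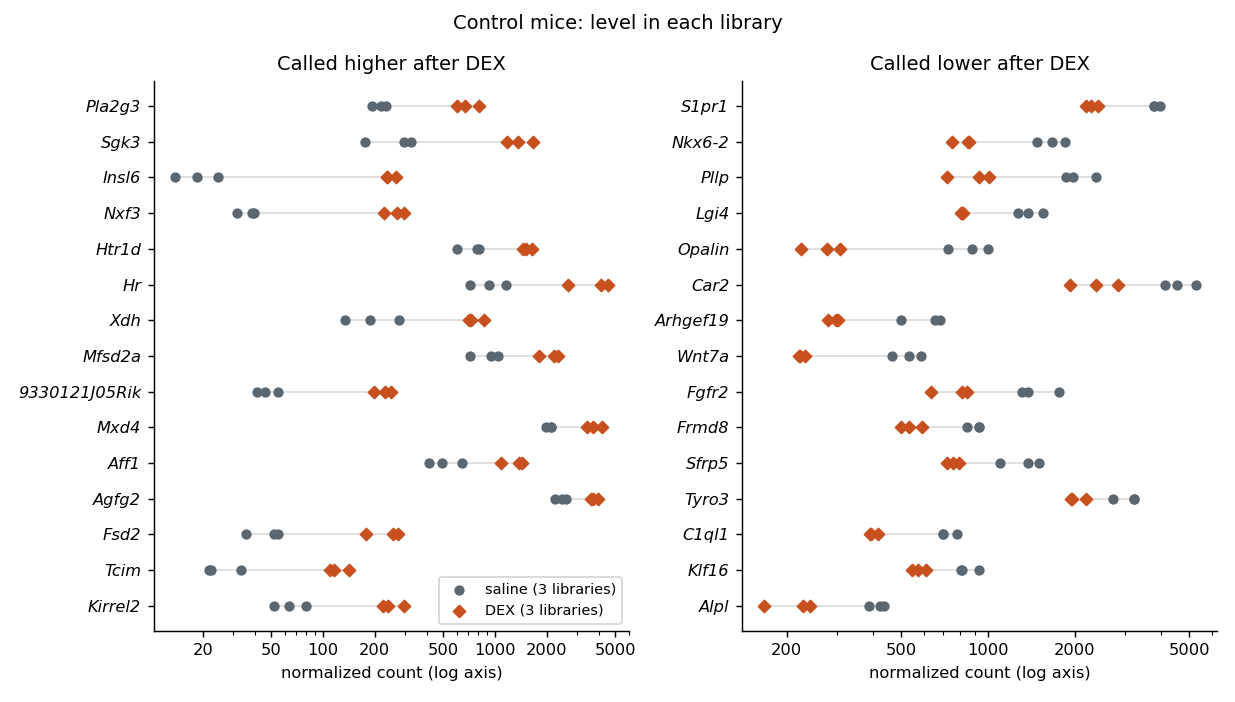
Normalized read count (log axis) of the 15 genes called higher (left) and the 15 called lower (right) with the smallest p outside the known glucocorticoid targets, with 1 point per control library (grey circles, 3 saline libraries; orange diamonds, 3 DEX libraries). The genes were chosen among those with separate arms, so by choice the 3 DEX points lie apart from the 3 saline points in every gene. For Insl6 they are 237, 265 and 234 against 13.9, 24.4 and 18.4.

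Regulators of transcription changed in both directions. Hr (ENSMUSG00000022096.14, chromosome 14, 70552212 to 70573548), a corepressor that works with nuclear receptors, had 1152, 917 and 718 in the saline libraries and 4518, 2670.1 and 4146 in the DEX libraries and rose 4.07-fold (log2 change 2.01, SE 0.23, adjusted p = 0.000495). Mxd4 (ENSMUSG00000037235.13, chromosome 5, 34173883 to 34187720), a partner of Max that opposes Myc, had 2128, 1993 and 2113 in the saline libraries and 4199, 3410.1 and 3716 in the DEX libraries (log2 change 0.86, SE 0.11, adjusted p = 0.0011). For Aff1, a scaffold of the complex that releases paused RNA polymerase, the counts were 639, 415 and 491 in the saline libraries and 1383, 1078 and 1433 in the DEX libraries (log2 change 1.34, SE 0.17, adjusted p = 0.0011). All 3 genes had arms that did not overlap. In the Kruppel-like factor family, zinc finger factors that bind GC-rich promoter sites, 3 of 14 measured members rose and 1 fell, 28.6% against 1.26% of all genes. Klf9, which is itself a known target, had 3460.5, 3293 and 3876 in the saline libraries and 5932, 5949 and 5997 in the DEX libraries and differed little among the DEX libraries (log2 change 0.75, SE 0.09, adjusted p = 0.00103). Klf13 had 3867, 2751 and 3028 in the saline libraries and 5273, 5277 and 5829 in the DEX libraries (log2 change 0.78, SE 0.12, adjusted p = 0.00452). Klf15, which controls amino acid and glucose use in other tissues, rose by 0.72 on the log2 scale (adjusted p = 0.00857). Klf16 moved the other way, with 806, 929 and 811 in the saline libraries and 609, 543 and 569 in the DEX libraries (log2 change -0.56, SE 0.11, adjusted p = 0.0229). Klf16 no longer passed in 2 of the 16 fits without 1 library (adjusted p = 0.125 without con_dex_122). Among 323 zinc finger genes named Zfp, 1 was called, Zfp729a, with 663, 629 and 572 in the saline libraries and 919, 933 and 939 in the DEX libraries (log2 change 0.58, SE 0.10, adjusted p = 0.0113). It belongs to a cluster of closely related copies, so its reads may be shared with them, and 220 of the 323 had a log2 change above 0, 50.7% of all genes doing so.

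A few genes of fuel use and oxygen sensing rose. Of 17 measured hypoxia-induced genes 4 rose and none fell, 23.5% against 1.26% of all genes, while 9 lay above 0, 8 below and the median log2 change was 0.04. Of 28 genes of glycolysis and glucose uptake 2 rose and none fell, 7.14%, with a median of -0.06. Pfkfb3 (ENSMUSG00000026773.19, chromosome 2, 11471433 to 11554077), the enzyme whose product switches on glycolysis, had 3908, 3979 and 3459 in the saline libraries and 6943, 6364 and 8555 in the DEX libraries (log2 change 0.94, SE 0.14, adjusted p = 0.00317). Slc2a1, the glucose transporter of brain vessels and glia, had 5029.7, 4755 and 4308 in the saline libraries and 6721, 6890.3 and 6913 in the DEX libraries (log2 change 0.55, SE 0.09, adjusted p = 0.0107). Both genes belong to both lists, and their arms did not overlap. Hif3a, a hypoxia factor that counts among the known targets, rose from 308, 145 and 243 to 1306, 652 and 1102 (log2 change 2.14, SE 0.35, adjusted p = 0.00973). Ddit4, an inhibitor of mTOR on the same list, had 1663, 1873 and 1570.2 in the saline libraries and 3126, 2259.6 and 3111 in the DEX libraries (log2 change 0.72, SE 0.14, adjusted p = 0.0229). Of the 28 glycolysis genes, 16 had a log2 change below 0, so most of the list did not share the direction of Pfkfb3 and Slc2a1.

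Lipid genes gave 2 calls among 30 members, 6.67% against 1.26% of all genes. They were the known target Plin4 and Pnpla2, the lipase that opens the stored fat of lipid droplets. Pnpla2 had 1381, 1393 and 842 in the saline libraries and 2715, 1836 and 2347 in the DEX libraries (log2 change 0.95, SE 0.20, adjusted p = 0.0411), and 15 of the 30 members lay above 0 and 15 below. None of 23 cholesterol synthesis genes was called (limma, 2 at an unadjusted p under 0.05), with a median log2 change of -0.12. With 1 library left out, Pnpla2 (adjusted p = 0.205 without con_dex_101) no longer passed in 2 of the 16 fits, and Ddit4 (adjusted p = 0.157 without con_dex_122) in 2.

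Genes that bind or move metals were among those that rose. Of 15 measured metallothionein and iron genes 3 rose against 1.26% of all genes called, none fell, and the median log2 change was 0.35. Mt2 (ENSMUSG00000031762.7, chromosome 8, 94172664 to 94173568), a metallothionein that binds zinc and copper and is a known target, had 3024, 2763 and 2129 in the saline libraries and 6895, 6785 and 6897 in the DEX libraries (log2 change 1.39, SE 0.20, adjusted p = 0.00243). Heph, a ferroxidase that lets iron leave cells, had 429, 449 and 481 in the saline libraries and 755, 775 and 822 in the DEX libraries (log2 change 0.79, SE 0.14, adjusted p = 0.0133). For Cp, the ferroxidase ceruloplasmin, the counts were 451, 303 and 294 in the saline libraries and 654, 789.8 and 664 in the DEX libraries (log2 change 1.03, SE 0.21, adjusted p = 0.0347). Both ferroxidases had all 3 DEX libraries above all saline libraries. Mt1, the neighbor of Mt2, had 5632, 6812 and 4157 in the saline libraries and 9041, 9898 and 11043 in the DEX libraries and did not pass the test (log2 change 0.88, SE 0.28, adjusted p = 0.224), nor did Mt3, the metallothionein of neurons and astrocytes, with a log2 change of -0.24. The iron storage genes Ftl1 and Fth1 had log2 changes of -0.34 and -0.25, not called. Cp did not pass in 4 of the 16 fits without 1 library (adjusted p = 0.154 without con_sal_104), while Heph and Mt2 passed in all 16. Gclm, a subunit of the enzyme that starts glutathione synthesis, was the single call among 27 antioxidant genes (log2 change 0.34, SE 0.08, adjusted p = 0.075) and did not pass in 13 of those fits (adjusted p = 0.266 without con_dex_116).

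Among genes of the blood-brain barrier 3 transporters rose, and no endothelial marker passed the test. Of 19 measured barrier genes 3 rose and none fell, 15.8% against 1.26% of all genes. The list did not move as a whole, with 10 members above 0, 9 below, 3 lower at an unadjusted p under 0.05 and a median of 0.06. Mfsd2a (ENSMUSG00000028655.11, chromosome 4, 122946850 to 122961188), which carries docosahexaenoic acid into the brain and limits transport through endothelial cells, had 1041, 952 and 720.1 in the saline libraries and 2217, 1794 and 2333 in the DEX libraries (log2 change 1.23, SE 0.15, adjusted p = 0.000774). Abcc4, an efflux pump for organic anions, had 586, 408 and 382 in the saline libraries and 800.5, 885 and 793 in the DEX libraries (log2 change 0.87, SE 0.15, adjusted p = 0.0107). The remaining call was Slc2a1. The organic anion transporter Slco1c1 had 1502, 1034 and 1195 in the saline libraries and 839, 935 and 809.6 in the DEX libraries, lower in each DEX library but not called (log2 change -0.52, SE 0.15, adjusted p = 0.189). Of 14 endothelial markers none was called (limma, 1 at an unadjusted p under 0.05), and their summed level was between 9661 and 14830 normalized counts in saline libraries and between 12110 and 13060 in DEX libraries. Alpl, the alkaline phosphatase of endothelial cells, fell from 420.1, 385 and 434 to 228, 242 and 166 (log2 change -0.98, SE 0.19, adjusted p = 0.0252), a call lost without con_dex_122 (adjusted p = 0.167).

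Genes of the Wnt and FGF pathways changed in both directions. In Wnt signaling, in which secreted Wnt proteins bind Frizzled receptors on the cell surface, 2 of 34 measured genes rose and 3 fell. Together this is 14.7% against 1.26% of all genes. Fzd2 (ENSMUSG00000050288.6, chromosome 11, 102604396 to 102608058), a Frizzled receptor, had 538, 601 and 503 in the saline libraries and 1225, 1037 and 1239 in the DEX libraries and rose 2.13-fold (log2 change 1.09, SE 0.16, adjusted p = 0.00379). The ligand Wnt7a (ENSMUSG00000030093.7, chromosome 6, 91363981 to 91411363), one of the Wnt proteins that act on brain vessels, had 531, 586 and 464 in the saline libraries and 223, 221 and 231 in the DEX libraries (log2 change -1.22, SE 0.21, adjusted p = 0.0109). Its relative Wnt7b fell from 1016, 1013 and 801 to 576, 640.3 and 514 (log2 change -0.71, SE 0.16, adjusted p = 0.0603). Sfrp5, a secreted protein that binds and blocks Wnt proteins, had 1099.7, 1509 and 1376 in the saline libraries and 791, 757 and 718 in the DEX libraries (log2 change -0.80, SE 0.15, adjusted p = 0.0167). Wnt3 rose from 259.6, 303 and 285 to 469, 393 and 413 (log2 change 0.59, SE 0.14, adjusted p = 0.0736). The list as a whole was balanced, with 18 members above 0, 16 below and a median of 0.05.

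In FGF and PDGF signaling, growth factors that act through receptor tyrosine kinases, 1 of 25 members rose and 2 fell, 12% against 1.26% of all genes. The ligand Fgf2 had 455.7, 337 and 372 in the saline libraries and 739, 587 and 889 in the DEX libraries (log2 change 0.92, SE 0.18, adjusted p = 0.0262), whereas the receptor Fgfr2 (ENSMUSG00000030849.18, chromosome 7, 130162451 to 133123350) had 1770.4, 1377 and 1318 in the saline libraries and 842, 809 and 633 in the DEX libraries (log2 change -0.96, SE 0.17, adjusted p = 0.0113). Fgfrl1, a receptor that lacks the kinase domain, fell from 432, 361 and 308 to 206, 200.2 and 167 (log2 change -0.93, SE 0.21, adjusted p = 0.058). No library of one arm reached the range of the other in these 3 genes. Notch4, a Notch receptor of endothelial cells, was the single call among 22 Notch genes. It had 397, 319.7 and 291 in the saline libraries and 885, 642 and 1079 in the DEX libraries (log2 change 1.35, SE 0.19, adjusted p = 0.00209), and its promoter window is printed above. Tyro3, a receptor tyrosine kinase for the ligands that mark dying cells, fell from 3204, 3208 and 2726 to 2185, 1941 and 1962 (log2 change -0.58, SE 0.11, adjusted p = 0.0178). Of 36 TGF-beta and BMP genes none was called (limma, 2 at an unadjusted p under 0.05), and none of 22 insulin and IGF genes was (5 at an unadjusted p under 0.05). With 1 library left out, the calls of Wnt3 (adjusted p = 0.318 without con_dex_101), Wnt7b (adjusted p = 0.327 without con_dex_122), Sfrp5 (adjusted p = 0.112 without con_dex_122), Fgf2 (adjusted p = 0.179 without con_dex_122), Fgfrl1 (adjusted p = 0.303 without con_dex_122) and Tyro3 (adjusted p = 0.112 without con_dex_122) were lost.

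**Figure D2:**
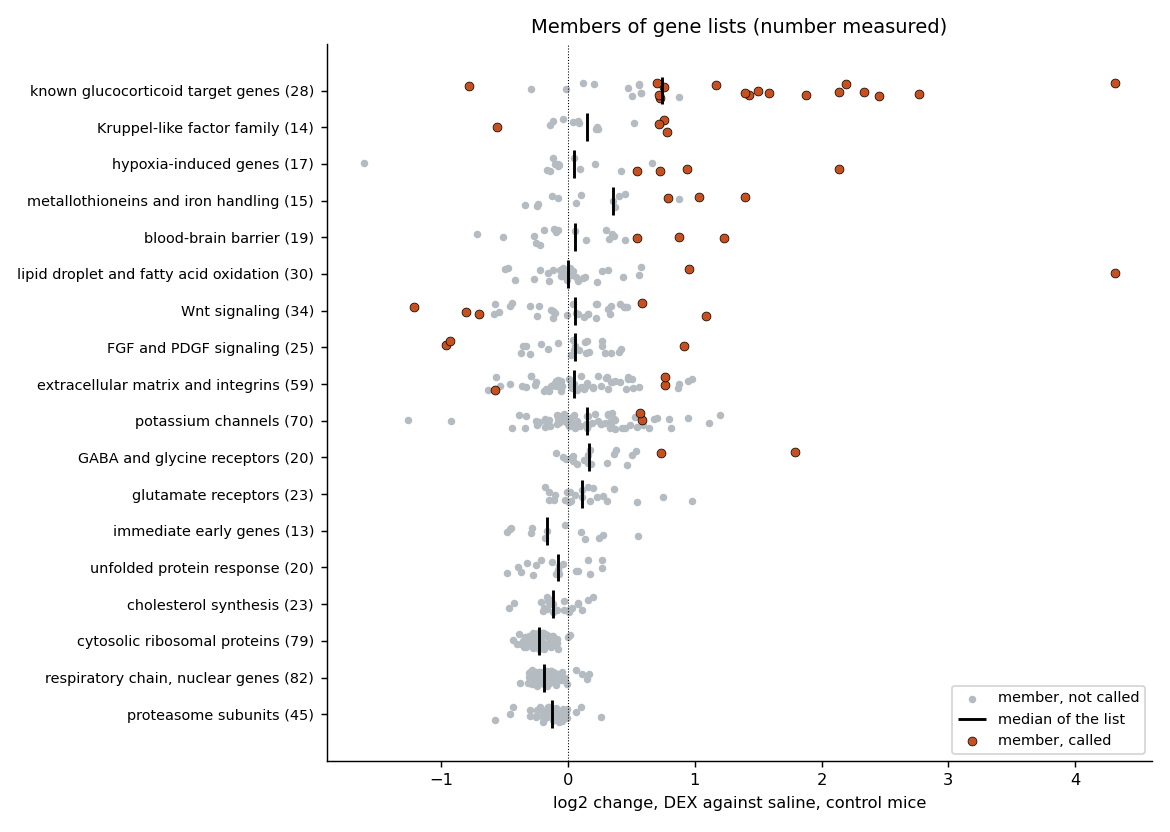
Log2 change after DEX in control mice for each measured member of 18 gene lists (1 point per gene; orange, called at an adjusted p under 0.1; grey, not called; black bar, median of the list; the number measured stands after each name). Called members lie on both sides of 0 in the Wnt and the FGF and PDGF lists, and the 79 cytosolic ribosomal protein genes sit at a median of -0.23 with no member called.

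Among genes that set the signaling of neurons, single receptors and channels were called. Htr1d (ENSMUSG00000070687.11, chromosome 4, 136423524 to 136444398), an inhibitory serotonin receptor that is known to act on serotonin neuron terminals, had 812, 783 and 600.2 in the saline libraries and 1522, 1461 and 1648 in the DEX libraries. The arms lay far apart, with means that went from 732 ± 115 (SD, n = 3) to 1544 ± 95.6 (SD, n = 3) (log2 change 1.09, SE 0.12, adjusted p = 0.000461). It was the single call among 10 measured serotonin receptors, where 1.26% of all genes were called. Htr1a, the autoreceptor of the serotonin cell body, had 5744, 6701 and 6064 in the saline libraries and 4971, 6124 and 5592 in the DEX libraries (log2 change -0.15, SE 0.11, adjusted p = 0.579). None of the 17 genes of serotonin synthesis, transport and identity was called (limma, 1 at an unadjusted p under 0.05). Fev, the transcription factor that specifies serotonin neurons, had 5725, 9636 and 3483 in the saline libraries and 3813, 4274 and 4499.5 in the DEX libraries (log2 change -0.46, SE 0.27, adjusted p = 0.503), with con_sal_104 far above the other libraries. The glucocorticoid receptor Nr3c1 had 5704, 6018 and 6181 in the saline libraries and 4095, 5624 and 4993 in the DEX libraries (log2 change -0.29, SE 0.11, adjusted p = 0.332), and the mineralocorticoid receptor Nr3c2 had 1852, 1626 and 1323 in the saline libraries and 1451, 1341 and 1463 in the DEX libraries (log2 change -0.16, SE 0.13, adjusted p = 0.634), neither called.

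Hrh1, the excitatory histamine H1 receptor, had 1224, 1319.6 and 1256 in the saline libraries and 2232, 1833 and 1900.1 in the DEX libraries (log2 change 0.65, SE 0.11, adjusted p = 0.0113). It was the single call among 30 other amine and purine receptors. Kcnk1, a potassium channel that sets the resting potential, had 2107, 2196 and 1799.8 in the saline libraries and 3216, 2964 and 2939.7 in the DEX libraries (log2 change 0.58, SE 0.10, adjusted p = 0.0119). Together with Kcna5 (log2 change 0.57, SE 0.14, adjusted p = 0.0983) it made up the 2 calls among 70 potassium channel genes, 2.86% against 1.26% of all genes, and 45 of the 70 lay above 0 where 50.7% of all genes did. Of 20 GABA and glycine receptor genes 2 rose, 10% against 1.26% of all genes. Gabrr2, a subunit of the slow GABA receptor, was low with 45.6, 45.8 and 30.4 in the saline libraries and 165, 92.3 and 182 in the DEX libraries (log2 change 1.79, SE 0.38, adjusted p = 0.045). Gabrb1, a subunit of the common GABA-A receptor, had 13366, 8369.5 and 12993 in the saline libraries and 18699, 15893 and 22385 in the DEX libraries (log2 change 0.73, SE 0.18, adjusted p = 0.0957). Lifr, the receptor of leukemia inhibitory factor, was the single call among 11 neurotrophin and cytokine receptor genes (log2 change 0.84, SE 0.19, adjusted p = 0.0622). Kcna5 did not pass in 13 of the 16 fits with 1 library left out. Without 1 library the calls of Kcna5 (adjusted p = 0.41 without con_dex_122), Gabrr2 (adjusted p = 0.261 without con_dex_122), Gabrb1 (adjusted p = 0.463 without con_dex_122) and Lifr (adjusted p = 0.298 without con_dex_122) were lost, while those of Htr1d, Hrh1 and Kcnk1 were kept in all 16 fits. With the 6 control libraries alone, Htr1d passed (limma, adjusted p = 0.0401), while Hrh1 and Kcnk1 did not (adjusted p = 0.120 and 0.157). None of 23 glutamate receptor genes was called, none of 46 sodium, calcium, HCN and TRP channel genes, and none of 24 neuropeptide precursors and 31 neuropeptide receptors (limma, 3, 8, 7 and 2 at an unadjusted p under 0.05). The precursor genes Pnoc and Penk had log2 changes of -0.73 and -0.58, not called.

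Several of the genes with the smallest p among those that fell are known from glia. S1pr1 (ENSMUSG00000045092.8, chromosome 3, 115710433 to 115715072), a receptor for sphingosine-1-phosphate on astrocytes and vessels, had 3769, 3965 and 3765 in the saline libraries and 2285, 2407 and 2184 in the DEX libraries. The libraries of each arm were within a narrow range, with means that went from 3833 ± 114.5 (SD, n = 3) to 2292 ± 112 (SD, n = 3) (log2 change -0.74, SE 0.09, adjusted p = 0.000776). Nkx6-2 (ENSMUSG00000041309.17, chromosome 7, 139579376 to 139582797), a homeobox factor of maturing oligodendrocytes, had 1480.1, 1847 and 1666 in the saline libraries and 855, 858 and 749 in the DEX libraries (log2 change -1.02, SE 0.13, adjusted p = 0.00103). Pllp, a proteolipid of myelin, had 2378, 1974 and 1859.7 in the saline libraries and 1009.6, 934 and 722 in the DEX libraries (log2 change -1.23, SE 0.16, adjusted p = 0.00125). For Car2, a carbonic anhydrase that is rich in oligodendrocytes, the counts were 5270.5, 4545 and 4105 in the saline libraries and 2363, 2824 and 1919.6 in the DEX libraries (log2 change -0.98, SE 0.16, adjusted p = 0.00735). Lgi4, a secreted glial protein needed for peripheral myelination, had 1382, 1554 and 1275 in the saline libraries and 803, 818 and 813 in the DEX libraries and nearly the same level in all DEX libraries (log2 change -0.79, SE 0.11, adjusted p = 0.00165). Opalin (ENSMUSG00000050121.9, chromosome 19, 41061710 to 41077113), a membrane protein of the myelin paranode, fell most, with 997, 726 and 883 in the saline libraries and 306, 277 and 225 in the DEX libraries (log2 change -1.69, SE 0.26, adjusted p = 0.00532). All 6 genes kept their calls in each of the 16 fits without 1 library. In a bulk sample, fewer cells of a type and less RNA per cell cannot be told apart.

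Of 18 oligodendrocyte markers Opalin alone was called lower and none higher, 14 lay below 0 (49.3% of all genes), and the median log2 change was -0.27. Gjb1, a connexin that couples oligodendrocytes, had 574, 548 and 455 in the saline libraries and 230.0, 406 and 155 in the DEX libraries and did not pass (log2 change -1.10, SE 0.32, adjusted p = 0.188). Abundant myelin genes lay closer to 0. Mbp, the myelin basic protein, had 92692, 83352 and 63235 in the saline libraries and 74129, 67937 and 56862 in the DEX libraries (log2 change -0.26, SE 0.19, adjusted p = 0.594). Mobp and Mal had log2 changes of 0.14 and -0.06. The summed level of the 18 markers was between 132300 and 179500 normalized counts in saline libraries and between 115100 and 149700 in DEX libraries, so these ranges overlapped while those of Opalin did not.

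**Figure D3:**
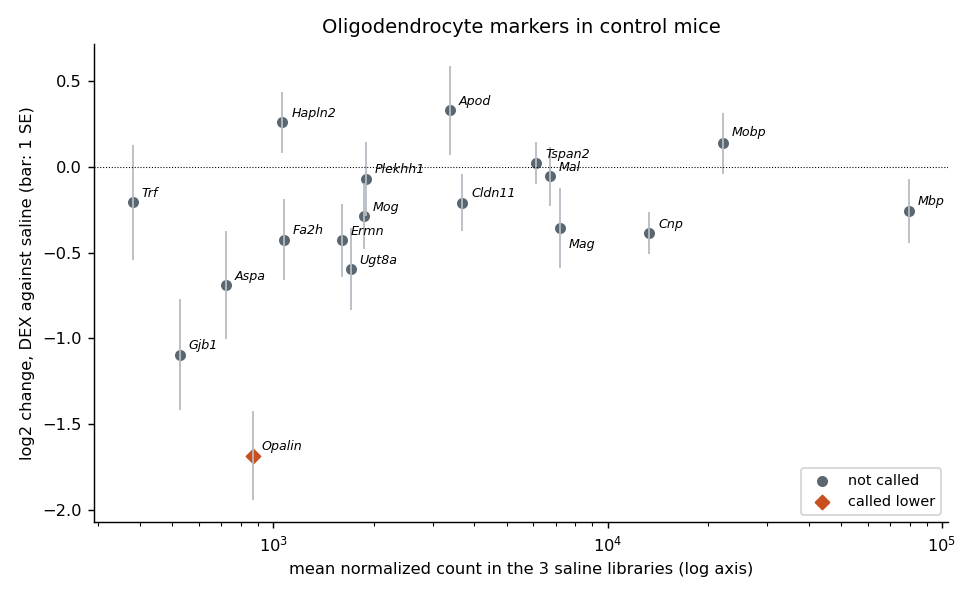
Log2 change after DEX in control mice (points, with bars of 1 SE) against the mean normalized count in the 3 saline libraries (log axis) for 18 oligodendrocyte markers. Opalin, at -1.69, is called lower (orange), and Mobp, Mal and Tspan2 lie between -0.06 and 0.14.

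Other glial lists gave 1 or 2 calls each, where 1.26% of all genes were called. C1ql1, a secreted C1q-like protein that marks oligodendrocyte precursors and organizes synapses, had 699, 781 and 699 in the saline libraries and 415, 390.3 and 394 in the DEX libraries (log2 change -0.86, SE 0.16, adjusted p = 0.0213). Vcan, a matrix proteoglycan on the same list of 12 precursor markers, moved the other way, from 1117, 630.3 and 973 to 1638, 1416 and 1443 (log2 change 0.76, SE 0.18, adjusted p = 0.0791). Pdgfra, the growth factor receptor that defines these precursors, had 2285, 1841 and 1862 in the saline libraries and 2700.0, 2501 and 2659 in the DEX libraries and was not called (log2 change 0.40, SE 0.10, adjusted p = 0.121). Among 17 astrocyte markers S1pr1 fell and Gjb6, an astrocyte connexin, rose from 2046, 2122 and 2185 to 3145, 3428 and 2651 (log2 change 0.53, SE 0.13, adjusted p = 0.0956), with a list median of 0.02. Cx3cr1, the fractalkine receptor of microglia, had 1055, 1004 and 937 in the saline libraries and 512, 738 and 527 in the DEX libraries (log2 change -0.77, SE 0.15, adjusted p = 0.0267). It was the single call among 17 microglia markers, 16 of which lay below 0 (49.3% of all genes), with a median of -0.28. Their summed level was between 9341 and 9750 normalized counts in saline libraries and between 7807 and 8155 in DEX libraries, so the arms did not overlap. The part of this level in the lower Cx3cr1 was not tested. Separate arms were not particular to the microglia list. By the mean log2 deviation of a list, arms also lay apart, with DEX higher, for alpha-arrestins, metallothionein and iron genes, GABA and glycine receptors and the Zfp genes. The differences of DEX from saline were 0.52, 0.32, 0.29 and 0.08, against -0.32 for microglia markers. DEX was likewise higher with separate arms for the known targets (1.12), Kruppel-like factors (0.20) and the lipid droplet list (0.18). The same held for cyclins and their inhibitors (0.14), mTOR brakes and FoxO targets (0.13) and corticosteroid receptors and chaperones (0.14). In every other list the arms overlapped. The other microglia markers were not called. Csf1r, the growth factor receptor of microglia, had 1761, 1433 and 1619 in the saline libraries and 1508, 1369 and 1311 in the DEX libraries (log2 change -0.20, SE 0.11, adjusted p = 0.503). Nfkbia, the inhibitor that holds NF-kappaB in the cytoplasm and a known target, was the single call among 16 inflammatory genes (log2 change 0.72, SE 0.17, adjusted p = 0.0819), and none of 38 interferon and antigen presentation genes was called (limma, 7 at an unadjusted p under 0.05). Without 1 library the calls of C1ql1 (adjusted p = 0.112 without con_dex_122), Vcan (adjusted p = 0.30 without con_dex_101), Gjb6 (adjusted p = 0.30 without con_dex_101), Cx3cr1 (adjusted p = 0.178 without con_dex_122) and Nfkbia (adjusted p = 0.322 without con_dex_101) were lost.

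Large housekeeping families had no called member, and their medians lay slightly below 0. Over all genes, 49.3% had a log2 change below 0. Of 79 cytosolic ribosomal protein genes, 78 had a log2 change below 0, with a median of -0.23, but only 1 had its arms apart. None was called (limma, 2 at an unadjusted p under 0.05). In all 79 genes con_sal_104 and con_sal_114 lay above con_dex_101 and con_dex_122, while in 78 of 79 con_dex_116 lay above con_sal_102, an order that was looked for after the values were seen. Rpl18 had 5779.7, 8849 and 7406 in the saline libraries and 5078, 6414 and 5016 in the DEX libraries (log2 change -0.40, SE 0.18, adjusted p = 0.399) and shows it. Of 82 nuclear genes of the respiratory chain 78 lay below 0, with a median of -0.19, and con_dex_116 lay above con_sal_102 in 67 of them. For mitochondrial ribosomal proteins these counts were 69 of 77 below 0 (median -0.15) and 63, and for proteasome subunits 42 of 45 below 0 (median -0.13) and 37. For the cytosolic ribosomal list the median was -0.39 both without con_dex_116 and without con_sal_102, and between -0.15 and -0.18 without each of the other control libraries. The respiratory chain, mitochondrial ribosomal and proteasome lists had medians of -0.29, -0.25 and -0.23 without con_dex_116. Their medians nearest to 0 without 1 control library were -0.11 and -0.11 without con_dex_122 and -0.07 without con_sal_104. The list of sodium, calcium, HCN and TRP channels was placed the opposite way across libraries. The mean log2 deviation of the 46 sodium, calcium, HCN and TRP channel genes was 0.17 in con_sal_102, -0.21 in con_sal_104, -0.22 in con_sal_114, 0.15 in con_dex_101, -0.07 in con_dex_116 and 0.18 in con_dex_122. Over all genes, the fifth with the shortest exons (29 to 1837 bases) had a median log2 change of -0.09 and the fifth with the longest (from 7287 bases) one of 0.18. The called genes had a median exon length of 5600 bases when higher and 3168 when lower, against 4038 for all genes, and 136 higher and 36 lower genes were called once the trend with length was removed. These were not all the same genes: of the 183 called genes, 144 were still called in that fit and 39 were not. With this trend removed, the medians of the cytosolic ribosomal, respiratory chain, mitochondrial ribosomal and proteasome lists were -0.11, -0.09, -0.08 and -0.07, closer to 0 than without the correction.

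**Figure D4:**
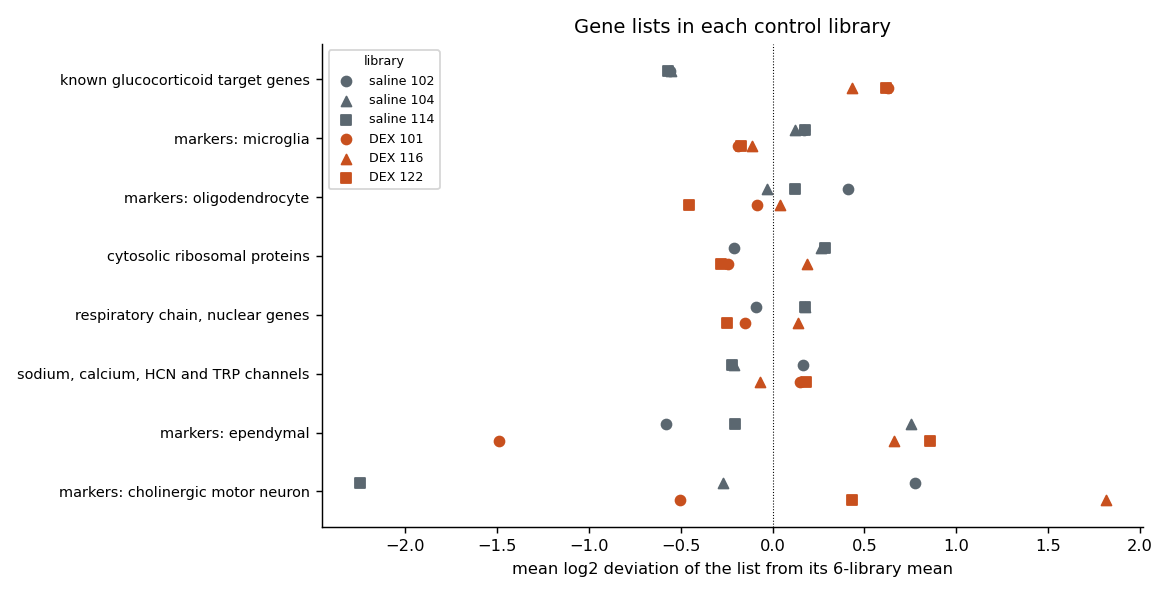
Mean log2 deviation of 8 gene lists from their mean over the 6 control libraries, with 1 point per library (grey, saline; orange, DEX; the shape gives the library). Among the 8 lists drawn, those of known targets and microglia markers separate the arms, as do other lists not drawn, such as alpha-arrestins and the Zfp genes. In the ribosomal and respiratory chain lists con_dex_116 lies with con_sal_104 and con_sal_114, and the ependymal and motor neuron markers spread within both arms.

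Immediate early genes (13 measured), brakes of MAP kinases (19), heat shock proteins (28), genes of the unfolded protein response (20), motile cilia (61) and axon guidance (63) had no called member in limma, and 3, 3, 2, 4, 1 and 11 of them were at an unadjusted p under 0.05. In the circadian clock 1 of 22 genes was called, Dbp, a clock output factor that fell from 3001, 4113 and 2904 to 2168, 2122 and 2024 (log2 change -0.65, SE 0.15, adjusted p = 0.077) and did not pass in 6 of the 16 fits without 1 library (adjusted p = 0.333 without con_dex_122). Per1, a known target and clock gene, had 1937, 1911 and 1732 in the saline libraries and 2815, 2435 and 3104 in the DEX libraries (log2 change 0.58, SE 0.17, adjusted p = 0.191). Solute carriers gave 3 calls among 240 genes, 1.25% beside 1.26% of all genes. Beside Slc2a1 these were Slc14a1, a urea transporter of astrocytes, and Slc13a5, a citrate transporter, with log2 changes of -0.57 and -0.67. Protocadherins gave 1 call among 47 (2.13%), Pcdh11x (log2 change 0.65, SE 0.13, adjusted p = 0.0307). Matrix and integrin genes gave 3 among 59 (5.09%), Itgb8, Vcan and the protease Mmp14, the last lower (log2 change -0.58, SE 0.13, adjusted p = 0.0533). The calls of Slc14a1 (adjusted p = 0.266 without con_dex_122), Slc13a5 (adjusted p = 0.327 without con_dex_122), Pcdh11x (adjusted p = 0.206 without con_dex_122), Itgb8 (adjusted p = 0.203 without con_dex_122) and Mmp14 (adjusted p = 0.255 without con_dex_101) were lost without 1 library.

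The same comparison in stressed mice shows how far these changes were shared. The DEX effect of controls was set against the mean of the DEX effects in PS and AS mice, and no gene differed at an adjusted p under 0.1 (limma). At an unadjusted p under 0.05, 454 genes differed, 3.13% of all genes, edgeR called none and DESeq2 called 2, Galntl6 and Zfp729a (adjusted p = 0.00835 and 0.0150). The 3 comparisons have their own DEX and saline libraries but share 1 estimate of the spread per gene. A call in PS or AS mice is therefore not independent of the call in controls. Of the 145 genes higher in controls, 141 also had a log2 change above 0 in PS mice (68 called) and 134 in AS mice (66 called), and the median was 0.79 in control mice against 0.66 and 0.68 in PS and AS mice. Of the 38 genes lower in controls, 38 were below 0 in PS (9 called) and 36 in AS (12 called), with medians of -0.74, -0.51 and -0.55. For comparison, 0.703% of all genes were called in PS and 0.689% in AS. The median log2 change over all genes was -0.0044 in PS and -0.0060 in AS mice. In all, 57 of the 183 genes were called in both stressed groups and 85 in neither. The 183 genes were chosen by the control effect, so their medians are given as a description.

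Several named genes had close values in the 3 groups. In the order controls, PS and AS, the log2 change of Opalin was -1.69, -1.81 and -1.64. For Mfsd2a these were 1.23, 1.43 and 1.61, and for Pllp -1.23, -1.02 and -1.18. Other genes had their largest value in controls. For Xdh the values were 1.99, 0.79 and 1.02, a difference of 1.09 (unadjusted p = 0.00282, limma). For Htr1d these were 1.09, 0.73 and 0.74 (difference 0.35, unadjusted p = 0.0386), and for Nkx6-2 -1.02, -0.62 and -0.53 (difference -0.44, unadjusted p = 0.0163). C1ql1 had -0.86, -0.01 and 0.07 (difference -0.89, unadjusted p = 0.00070), and Cp had 1.03, 0.55 and -0.20 (difference 0.85, unadjusted p = 0.00649). None of these differences held after adjustment over all genes. The genes were called on the control effect, which is also part of the difference. Their unadjusted p-values are therefore a description and not a separate test.

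**Figure D5:**
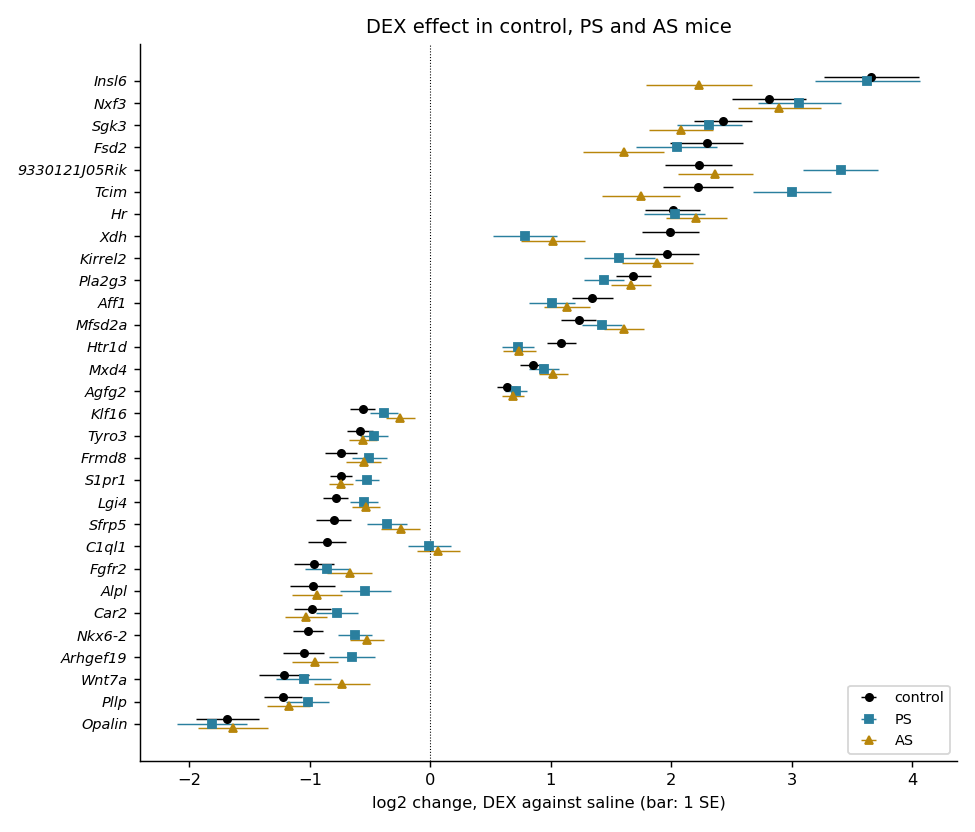
Log2 change after DEX (points, with bars of 1 SE) in control (black circles), PS (blue squares) and AS mice (gold triangles) for the 15 genes called higher and the 15 called lower in controls that head their direction outside the known targets. All 15 higher genes lie above 0 in all 3 groups, and of the lower genes C1ql1 lies at -0.01 in PS and 0.07 in AS.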

How the data were processed

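RNA-seq libraries of the DRN were made by the authors, who trimmed reads with fastp 0.20.1, aligned them to mm10 (GRCm38) with HISAT2 2.2.1, counted them per gene with featureCounts (Subread 2.0) and normalized with DESeq2 1.36.0. Whether counting used the strand is not given in the sources used here. The deposited values are a signal, in which the read count of each gene was divided by the DESeq2 size factor of its library. Deposited tables of the authors' own comparisons hold log2 fold changes and p-values and were not used. No column belonged to another series (0).

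Values were taken as log2(normalized count + 1), so fold changes of low genes are understated. limma 3.58.1 in R 4.3.3 fitted 6 group means over all 16 libraries with a trended variance, p-values were two-sided with Benjamini-Hochberg adjustment over 14504 genes, and genes were called at an adjusted p under 0.1. Multiplying by 1 factor per library returned whole reads for 100% of the values (tolerance 0.1). On these reads edgeR 4.0.16 called 142 genes higher and 38 lower and DESeq2 1.42.0 called 303 and 134. Alternatives were pseudocounts of 0.1 and 10, a mean of at least 100, TMM and quantile scaling, robust variances, library weights, removal of the trend with length, the 6 control libraries alone, and leaving out each library. The limma step was tested on simulated data.

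The gene lists and members were chosen with earlier results of these data known. Named genes were the 15 higher and 15 lower genes of smallest p outside the known targets with separate arms, up to 4 called members of each list, from lists that had no call or moved together the 2 members of smallest p and the 2 of highest mean, and Tph2, Slc6a4, Fev, Nr3c1 and Nr3c2. Others, such as Wnt3, Htr1a, Slco1c1, Mt1, Pdgfra and Gjb1, were chosen after their values were seen. Coordinates are from GENCODE vM21 on GRCm38, in which 14499 genes were found. A few genes and 1 gene list are not reported here, and the marker lists were summarised without them.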

Additional observations from a re-analysis of the deposited data

How the results depend on the processing

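Of the 183 called genes, 51 were called under all 27 alternatives, 68 in each fit without 1 library, 177 by edgeR, 182 by DESeq2 and 59 in the fit of the 6 control libraries alone. DESeq2 called 303 genes higher and 134 lower, and the control libraries alone gave 50 and 12. The fits without 1 library still take the spread from stressed mice too. Some named genes passed in each of those fits but not in the control libraries alone. Among them were Klf13, Klf15, Slc2a1, Abcc4, Fgfr2, Acaca and Plce1 (limma, adjusted p = 0.116, 0.116, 0.120, 0.205, 0.105, 0.120 and 0.143). Without 1 library, 62 to 224 genes were higher and 10 to 65 lower, the fewest without con_dex_122. For the difference between controls and stressed mice, DESeq2 called 2 genes and the fits without 1 library called 0 to 0. Of the 254 results recomputed, those that are counts have no direction. Direction was followed for the 183 called genes and for Tph2, Slc6a4, Fev, Nr3c1 and Nr3c2, and it reversed 3 times. Tph2 had a log2 change of -0.083 without con_dex_116 and -0.043 without con_sal_102 (range -0.083 to 0.20 over the fits without 1 library), and Slc6a4 had -0.12 without con_sal_114 (range -0.12 to 0.28). Medians of some lists also changed sign between alternatives, such as that of motile cilia (-0.14 to 0.71). The cause was not tested. The other alternatives gave 120 to 155 genes higher and 33 to 43 lower. Of the 183 called genes, 144 were kept with the length trend removed, 153 with library weights and 155 with quantile scaling. No paired analysis was possible because the numbers in the titles differ between all groups. With 817 genes under 10 reads in a control library, changes of low genes are imprecise.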

Other observations

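Genes of lipid and second messenger chemistry that belong to none of the lists were also called higher after DEX in control mice, and those given here were chosen after their values were seen. Dio2, the deiodinase that makes active thyroid hormone in astrocytes, had 496, 231 and 346 in the saline libraries and 1523, 1080.4 and 941 in the DEX libraries (log2 change 1.76, SE 0.30, adjusted p = 0.0109, limma). Acaca, the enzyme that commits acetyl-CoA to fatty acid synthesis, had 7652, 6365 and 6007 in the saline libraries and 10881, 10334 and 13649.7 in the DEX libraries (log2 change 0.80, SE 0.13, adjusted p = 0.00895). Abca1, which loads cholesterol onto lipoproteins, had 1483, 869 and 1272 in the saline libraries and 2045, 2290.0 and 2451 in the DEX libraries (log2 change 0.94, SE 0.21, adjusted p = 0.0583), a call lost in 4 of the 16 fits without 1 library (adjusted p = 0.276 without con_dex_122). The phospholipases C Plcd4 and Plce1, which release inositol trisphosphate, rose by 0.66 and 0.75 on the log2 scale (adjusted p = 0.0113 and 0.014). Itpr2, the inositol trisphosphate receptor of astrocytes, had 1299, 871 and 1339 in the saline libraries and 1767, 1815 and 1946 in the DEX libraries (log2 change 0.68, SE 0.14, adjusted p = 0.0367), a call lost in 3 of these fits (adjusted p = 0.208 without con_dex_122). In PS and AS mice the log2 changes were 1.84 and 1.49 for Dio2, 0.71 and 0.73 for Plcd4, 0.72 and 0.75 for Plce1, 0.82 and 0.95 for Abca1, 0.43 and 0.71 for Acaca, and 0.44 and 0.62 for Itpr2. Of these, Abca1 and Itpr2 were called in neither group and Acaca in AS mice only.

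A few called genes had a DEX effect near 0 in stressed mice, and these too were chosen after their values were seen. St8sia6, a sialyltransferase, had 1464, 1177 and 1541 in the saline libraries and 2274, 2938 and 2866 in the DEX libraries in controls and, in the order controls, PS and AS, log2 changes of 0.95, 0.18 and -0.06 (difference 0.89, unadjusted p = 0.000653, limma). Galntl6, of a family of glycosyltransferases, had 1399, 1451 and 1419.9 in the saline libraries and 1825, 1885 and 1938 in the DEX libraries in controls, and its log2 changes were 0.40, -0.14 and -0.15 (difference 0.55, unadjusted p = 0.000154). In 3 of the 16 fits with 1 library left out, Galntl6 did not pass in controls (adjusted p = 0.239 without con_dex_122). No difference passed the adjustment over all genes in limma. Both genes were called on the control effect, which is also part of the difference, so these unadjusted p-values are a description.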
